A study of Gallus gallus with 4 samples.

Results

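TWIST2, SCX, MEOX2, DLX5, SOX5, SOX9, SOX18 and MYOD1 encode transcription factors that mark lineages of the embryonic mesenchyme. Their transcripts were compared between the immortal DF-1 line and primary chicken embryo fibroblasts (CEF). The 8 genes were located by the sequence accession that the study's gene tables give for each symbol, and each accession had 1 probe, so that 8 of the 42034 gene probes and 8 of the 930 genes with a symbol are described. The study placed these genes in its tables because they passed a 2 fold threshold on the same 4 arrays, so their ratios are given here as descriptions, without p values. DF-1 cells are a spontaneously immortalized, non-transformed line from Line 0 embryos, free of endogenous virus, and were used at a late passage. Primary CEF cells were dissociated from whole specific-pathogen free embryos at 10 days and used at passage 4, so the 2 cell types did not come from the same embryos. Both were grown in the same serum-containing medium. Each of 4 two-color arrays held DF-1 cRNA in Cy5 and primary CEF cRNA in Cy3, and every ratio is DF-1 over primary CEF, so a positive log2 ratio means higher in DF-1 cells. The dyes were never exchanged, so in the array ratios a probe's response to a dye and a difference between the cells cannot be told apart. The study's methods describe spike-in RNA that was used to adjust possible dye effects. The study also measured TWIST2 and SCX by quantitative PCR, and both had the same direction as on its arrays. The sizes differed, as its PCR value was larger than its array value for TWIST2 and smaller in size for SCX. The sample labels and the study's methods call the arrays biological replicates, and the design text of the record names 1 sample of each cell type. If the arrays shared their cultures, the SD over them measures the assay alone.

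Loose mesenchyme of the embryo gives rise to dermis, tendon, cartilage, bone and vessels, and the somites also give skeletal muscle. Commitment to each fate is marked by factors that bind DNA through a small number of protein folds. TWIST2, SCX and MYOD1 are basic helix-loop-helix (bHLH) proteins that act as dimers with E proteins, MEOX2 and DLX5 carry a homeodomain, and SOX5, SOX9 and SOX18 carry the HMG box of the SOX family. The primary cultures came from whole embryos and the arrays measured pooled RNA, so fewer cells of a lineage and less transcript per cell cannot be told apart in any ratio below.

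Each gene was read through a single 60-base oligo, and the probes are shown because every value that follows rests on 1 of them. The probe sequences of 7 genes were at hand, and that of TWIST2 was not used here. For DLX5, SOX5 and MYOD1 the whole probe is given, as 2 of its 3 reading frames held no stop codon (TAA, TAG or TGA), which was so for at least 2 frames in 34.9% of the 1773 probes of lower genes whose sequences could be read. For SCX, MEOX2, SOX9 and SOX18 only the last 30 bases are given. Capitals mark the hexamers AATAAA and ATTAAA, the usual signals for polyadenylation, searched on the probe strand alone.
DLX5: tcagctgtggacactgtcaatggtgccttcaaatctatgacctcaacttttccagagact
SOX5: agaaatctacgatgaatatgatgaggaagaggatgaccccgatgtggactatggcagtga
MYOD1: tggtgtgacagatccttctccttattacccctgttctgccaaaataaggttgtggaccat
SCX: atataaagcctgagcagttcgtataattaa
MEOX2: tgaaggtaactcagtattgtgtcccgtgtg
SOX9: ccacgtgaaggcaAATAAATAAATAAAcaa
SOX18: gctccgtaatatgtagagtatctcATTAAA
SOX9 held overlapping copies of AATAAA and SOX18 ended in ATTAAA. Among the 1773 probes, 7.7% held AATAAA and 2.9% held ATTAAA, so these matches are uncommon in the list, and a match is a description of the letters alone. The G and C share was 33.3% in the SCX probe, 40.0% in the MEOX2 probe and 45.0% in each of the other 5, beside a median of 43.3% over the list.

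Of the 8 lineage factors, only TWIST2 was higher in DF-1 cells and the other 7 were lower. All 8 had the same sign on all 4 arrays, and 6 were past 2 fold on every array. Genes chosen on these same arrays are likely to keep their sign across them, so this is a description alone. A probe was called where its unadjusted limma p was under 0.05 and its mean log2 ratio was over 1 or under -1, the thresholds of the study's methods. By that rule 1 member was called higher, beside 6.12% of all gene probes, and 7 were called lower, beside 6.06%, so that all 8 were called, beside 12.2% in either direction. The members were taken from genes that had passed such thresholds on these arrays, so nothing is read from this comparison of shares. By the same thresholds the study reported fewer genes in each direction than the probes called here. Its log ratios of TWIST2, SCX, MEOX2 and DLX5 were all below the means given here, and the reason was not tested. Some genes in the study's lists, such as DLX6, were not called here. The median of the 8 means was -1.63, and the median over all gene probes was 0.22 on the same log2 scale. The arrays differed in level, with gene probe medians of -0.04, 0.20, 0.21 and 0.47 on arrays 1 to 4, and the 153 negative control spots had medians of 0.02, 0.17, 0.38 and 0.53.

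**Figure D1:**
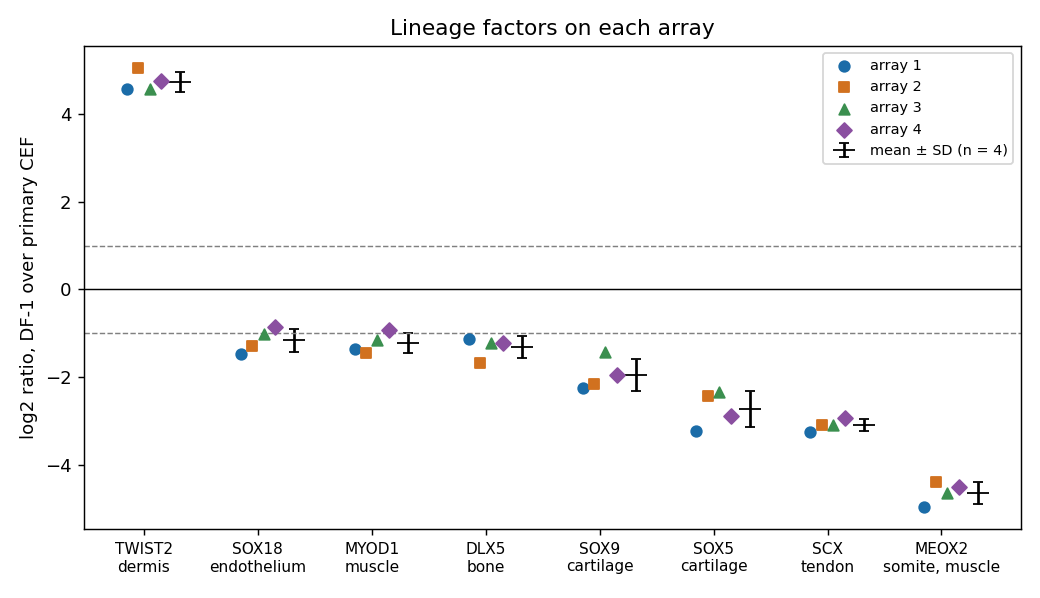
Log2 of DF-1 over primary CEF (vertical axis) is plotted for each lineage factor on arrays 1 to 4, with the mean and SD (n = 4 arrays) as a black bar and the 2 fold thresholds as dashed lines. TWIST2 lies between 4.56 and 5.05, while all values of the other 7 factors lie below 0, down to -4.97 for MEOX2.

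TWIST2, a bHLH factor of the dermal mesenchyme also named cDermo-1 in chick, had linear ratios of 23.6, 33.1, 23.8 and 26.9 on arrays 1 to 4. The lowest of these was still over 20 fold, and array 2 was highest. The log2 ratios were 4.56, 5.05, 4.57 and 4.75, with a mean of 4.73 ± 0.23 (SD, n = 4 arrays), a 26.6 fold higher level in DF-1 cells. This was the 15th highest mean among the 42034 gene probes. With the median of every array set to 0, the mean of TWIST2 was 4.52 ± 0.26, and with the negative control spots at 0 it was 4.46 ± 0.32.

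MEOX2, a homeodomain factor of the somites and of limb muscle precursors, was the lowest of the 8. Its linear ratios were 0.0319, 0.0477, 0.0399 and 0.0439, so its transcript was 24.8 fold lower in DF-1 cells at the mean. On the log2 scale the arrays gave -4.97, -4.39, -4.65 and -4.51, with a mean of -4.63 ± 0.25 (SD, n = 4). Array 1 was the most negative, and the range over arrays did not overlap that of the next factor, SCX. Its mean was the 116th lowest of the gene probes.

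SCX, or scleraxis, marks the progenitors of tendon and ligament and activates genes of their matrix. Its linear ratios were 0.106, 0.117, 0.117 and 0.132, an 8.52 fold lower level in DF-1 cells at the mean. The log2 ratios were -3.24, -3.10, -3.10 and -2.92, with a mean of -3.09 ± 0.13 (SD, n = 4), the narrowest spread of the 8 factors. With array medians at 0 it narrowed to -3.30 ± 0.08.

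The 2 cartilage factors were both lower, SOX5 more so than SOX9. SOX9 drives the commitment of mesenchyme to cartilage, and SOX5 acts beside SOX9 on the genes of cartilage matrix. SOX5 had linear ratios of 0.106, 0.185, 0.197 and 0.135, and SOX9 had 0.209, 0.224, 0.371 and 0.260. The log2 ratios of SOX5 were -3.24, -2.43, -2.34 and -2.89, a mean of -2.73 ± 0.42 (SD, n = 4) and 6.62 fold lower in DF-1 cells. Those of SOX9 were -2.26, -2.16, -1.43 and -1.94, a mean of -1.95 ± 0.37 and 3.86 fold lower. These were the widest spreads among the members, with array 1 farthest from 0 for both genes. Within an array, SOX9 exceeded SOX5 by 0.98, 0.27, 0.91 and 0.95, a difference of ratios of 0.78 ± 0.34 (SD, n = 4) that does not depend on the level of the arrays.

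DLX5, MYOD1 and SOX18 lay nearest to the 2 fold threshold. DLX5, a homeodomain factor of bone-forming cells and the pharyngeal arches, had linear ratios of 0.459, 0.315, 0.426 and 0.426. Its log2 ratios of -1.12, -1.67, -1.23 and -1.23 gave a mean of -1.31 ± 0.24 (SD, n = 4), 2.49 fold lower in DF-1 cells, with array 2 the most negative. MYOD1, which commits cells to skeletal muscle, had linear ratios of 0.390, 0.364, 0.453 and 0.524. Its log2 ratios of -1.36, -1.46, -1.14 and -0.93 gave -1.22 ± 0.23, or 2.33 fold lower. SOX18, a factor of endothelial cells that acts in vessel and lymphatic development, had linear ratios of 0.359, 0.410, 0.491 and 0.549. Its log2 ratios of -1.48, -1.29, -1.03 and -0.86 gave -1.16 ± 0.27, or 2.24 fold lower. On array 4, which had the highest median of all gene probes, MYOD1 and SOX18 did not reach 2 fold. With array medians at 0, MYOD1 was between -1.66 and -1.32 and SOX18 between -1.49 and -1.24, and their SD fell to 0.15 and 0.11. The spread of SOX18 was narrower still with the negative control spots at 0, at -1.44 ± 0.05. The spread of DLX5 did not narrow, with -1.52 ± 0.34 with array medians at 0 and -1.59 ± 0.31 with the negative control spots at 0. Among the probes of transcription regulators in the study's list, NACC2 at -1.01 lay just inside the threshold and DLX6 at -0.98 just outside it.

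**Figure D2:**
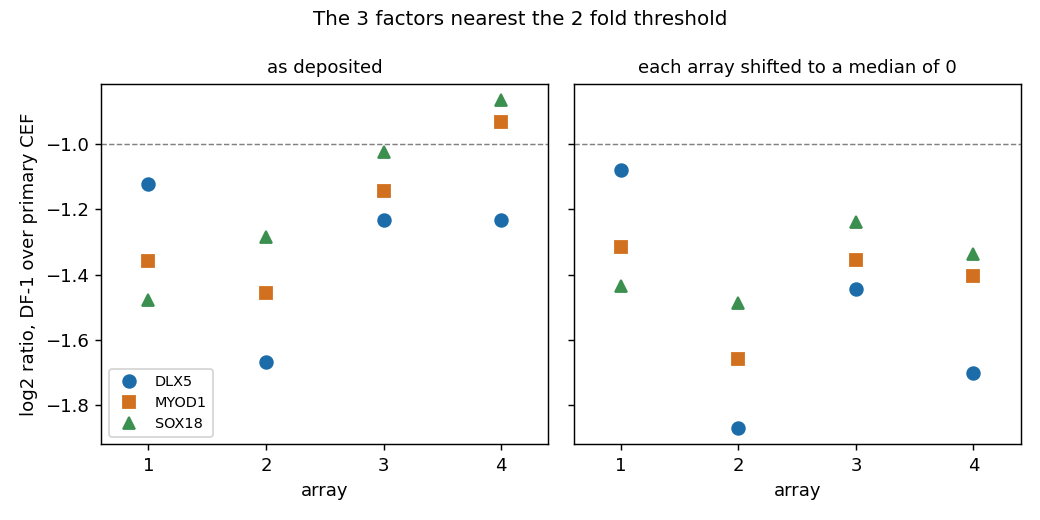
DLX5, MYOD1 and SOX18 are plotted on each array as log2 of DF-1 over primary CEF (vertical axis), as deposited (left) and with array medians at 0 (right), with the 2 fold threshold dashed. MYOD1 and SOX18 lie above the threshold on array 4 as deposited, at -0.93 and -0.86, and every point lies below it on the right.

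Ordered by their means, the factors ran from TWIST2 through SOX18, MYOD1, DLX5, SOX9, SOX5 and SCX to MEOX2, a span of 9.36 on the log2 scale. Of the 28 pairs of members, 25 kept 1 order on all 4 arrays, and 21 had array ranges that did not overlap. The 3 pairs without a fixed order were those among SOX18, MYOD1 and DLX5, whose means differed by 0.06 to 0.15. Neighbors whose ranges overlapped were SOX18 with MYOD1, MYOD1 with DLX5, DLX5 with SOX9, and SOX5 with SCX. Over the 4 arrays SOX5 exceeded SCX by 0.00, 0.66, 0.76 and 0.03. The step between SCX and MEOX2 was 1.54 ± 0.18 (SD, n = 4), and that between TWIST2 and SOX18 was 5.90 ± 0.36. The direction did not follow the protein family. Of the bHLH factors TWIST2 was higher and SCX and MYOD1 were lower, while the SOX and homeodomain members were lower throughout.

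The study's list of genes with known function holds 84 probes of 83 transcription regulators, which include all members except SCX. TWIST2 had the highest mean of the 84, 1.80 above the next, TFAP2B, at 2.93 ± 0.82 (SD, n = 4). MEOX2 was the 4th lowest, above CDKN2B, HOXD8 and GSC. SOX5 was the 7th lowest and SOX9 the 13th lowest. DLX5, MYOD1 and SOX18 were in the 22nd, 28th and 29th places from the lowest.

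**Figure D3:**
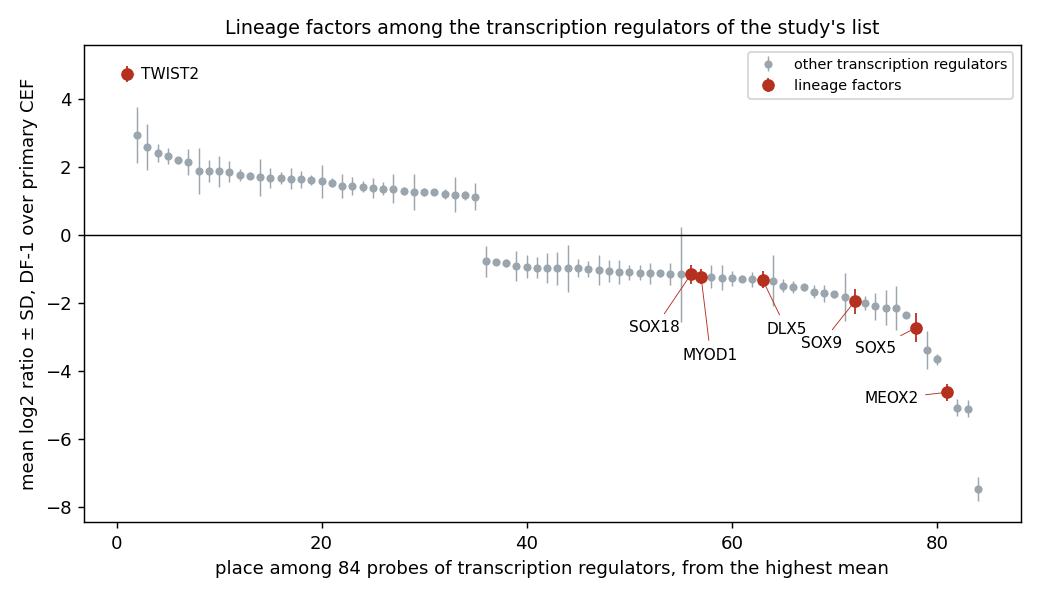
The mean of log2 DF-1 over primary CEF (vertical axis, bars are the SD over 4 arrays) is plotted against the place of each of 84 probes of transcription regulators, from the highest mean. TWIST2 stands 1.80 above the next probe, and the 6 other lineage factors shown lie between SOX18 at -1.16 and MEOX2 at -4.63; the empty band around 0 comes from the 2 fold threshold by which the list was made.

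The direction of each factor was set beside other genes of its lineage. In all, 14 lists of 362 genes were drawn up. A probe had a symbol only through the study's gene tables or RefSeq, as 952 of the 42034 gene probes did. In the lists, 54 genes other than the members had a symbol. Other listed genes may have probes without a symbol, and those did not enter these counts. Of these 54, 10 were called higher, 35 were called lower and 9 were not called, and their median log2 ratio was -1.52. Over all gene probes, 6.12% were called higher and 6.06% lower. The largest adjusted p of the 45 called genes was 0.00271, for BMP4, from limma with Benjamini-Hochberg adjustment over all gene probes. The study chose 52 of the 54 on these arrays, among them all 45 called genes. Neither this p value nor the counts are therefore independent evidence of a direction. Nothing is read from the excess of the counts over the shares of all gene probes, and the same holds for the counts of each list below. Of the lists, 3 had 0 genes with a symbol in the tables used for these counts, namely the markers of epithelium, those of blood and macrophages, and the E proteins and ID inhibitors that pair with bHLH factors. The ratios hold no levels, so whether the defining markers of fibroblasts were present in either cell type could not be checked. Of 8 such markers, COL3A1, DCN, LUM and FN1 had a symbol, and all 4 were lower in DF-1 cells.

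Beside TWIST2, the other genes of dermis and loose mesenchyme that had a symbol were lower. The study chose all of them by a 2 fold threshold on these arrays, so unchanged genes are largely missing here. Of 27 listed factors 3 had a symbol, and all 3 were called lower. NFIB, a nuclear factor I protein, had -3.39 ± 0.56 (SD, n = 4), EBF1, an early B-cell factor that is also found in mesenchyme, had -2.10 ± 0.39, and the T-box factor TBX18 had -1.22 ± 0.33. Of 25 listed products of dermal fibroblasts, 10 had a symbol and all 10 were called lower, with a median of -2.31. FBLN1, a glycoprotein of the matrix, was the lowest, with -5.55, -5.63, -5.96 and -5.68 on arrays 1 to 4. POSTN, the matricellular protein periostin, had -4.60 ± 0.43, and LUM, the collagen-binding proteoglycan lumican, had -3.18 ± 0.08. COL3A1, the collagen of pliable connective tissue, had -2.09 ± 0.44. The probes of FN1, or fibronectin, gave means from -2.64 to -1.32 and were all called lower. TWIST2 at 4.73 was the sole higher gene among the 14 genes of dermis and loose mesenchyme counted here, itself included.

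The genes with a symbol that were listed with SCX were lower as well. All 4 tendon genes with a symbol, of 21 listed, were called lower, with a median of -3.64. THBS2, a thrombospondin of connective tissue, had log2 ratios of -4.93, -4.67, -5.39 and -4.83, and FMOD, a proteoglycan of tendon, had -3.84, -3.65, -3.69 and -3.31. EGR1, a zinc finger factor that acts with SCX on tendon collagen genes, had -1.62 on array 1 and -1.01 to -0.83 on the others, a mean of -1.09 ± 0.36 (SD, n = 4) that was no longer called without array 1, at -0.91.

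For cartilage, 2 of 30 listed genes had a symbol and both were called lower beside SOX5 and SOX9. COL11A1, a chain of the cartilage collagen fibril and a target of SOX9, had -4.97, -5.53, -5.09 and -5.50, a mean of -5.27 ± 0.28 (SD, n = 4). COL9A3, a chain of the collagen that coats that fibril, had -2.14 ± 0.28. COL11A1 was thus more negative than either SOX factor on every array. SOX10, the neural crest member of the family, was the only other SOX gene with a symbol and was called lower, with -1.09, -2.58, -1.38 and -2.23.

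Of 17 listed genes of bone, 4 had a symbol, of which 2 were called lower and 2 were not called. MGP, an inhibitor of mineralization, had -3.18 ± 0.33 (SD, n = 4), and BMP4, a ligand that induces bone, had -1.02 ± 0.45. BMP2, a related ligand, had -0.93 ± 0.43 and was not called. DLX6, which lies next to DLX5 in the annotated chicken genome, was lowest at -1.25 on array 2 and highest at -0.62 on array 3, and its mean of -0.98 ± 0.26 was not called. With array medians at 0, BMP2 was at -1.14 and DLX6 at -1.19, and both were called lower. The calls also turned on single arrays. BMP4 was at -0.91 without array 1 and -0.89 without array 4 and was then not called, while BMP2 was called lower without array 2 or array 4, at -1.07 and -1.04, and DLX6 without array 3, at -1.10. DLX5 and DLX6 were both most negative on array 2, at -1.67 and -1.25.

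The endothelial genes did not share a direction. Of 36 listed, 4 had a symbol, of which 1 was called higher, 1 was called lower and 2 were not called. CLDN5, a tight junction protein of endothelium, had -2.98 ± 0.27 (SD, n = 4). NRP2, a receptor of veins and lymphatic vessels that is also found on neural cells, had 1.18 ± 0.23, and 0.97, short of 2 fold, with array medians at 0. PROX1, the lymphatic factor that SOX18 activates in mouse, had -1.12, -0.47, -1.42 and -0.65, and ENG, or endoglin, had -0.80 ± 0.17. Neither was called as deposited, and both were called lower at that setting, at -1.13 and -1.01. PROX1 was also called lower without array 2, at -1.06, and without array 4, at -1.004.

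The muscle genes were divided. Both factors with a symbol, of 20 listed, were called lower beside MYOD1. TEAD4, which acts on muscle promoters, had -1.31 ± 0.21 (SD, n = 4). Of 53 listed muscle products 8 had a symbol, of which 2 were called higher, 3 were called lower and 3 were not called. MYH6, a myosin heavy chain of the heart, was at 3.39, 4.29, 3.10 and 4.03, and the myosin light chain MYL10 had 1.87 ± 0.30. MYL4, an embryonic and atrial light chain, had -3.16, -3.21, -3.10 and -3.11, and MYH4, a fast skeletal myosin heavy chain, had -2.73 ± 0.58. The study's lists give the MYH4 probe under that symbol and under MYH1, so which skeletal myosin it measured is uncertain. The acetylcholine receptor subunits CHRND and CHRNG were named by RefSeq accession and not chosen on these arrays. They had 0.12 ± 0.36 (adjusted p = 0.577 from limma) and -0.45 ± 0.32 (adjusted p = 0.0611 from limma), and neither was called.

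**Figure D4:**
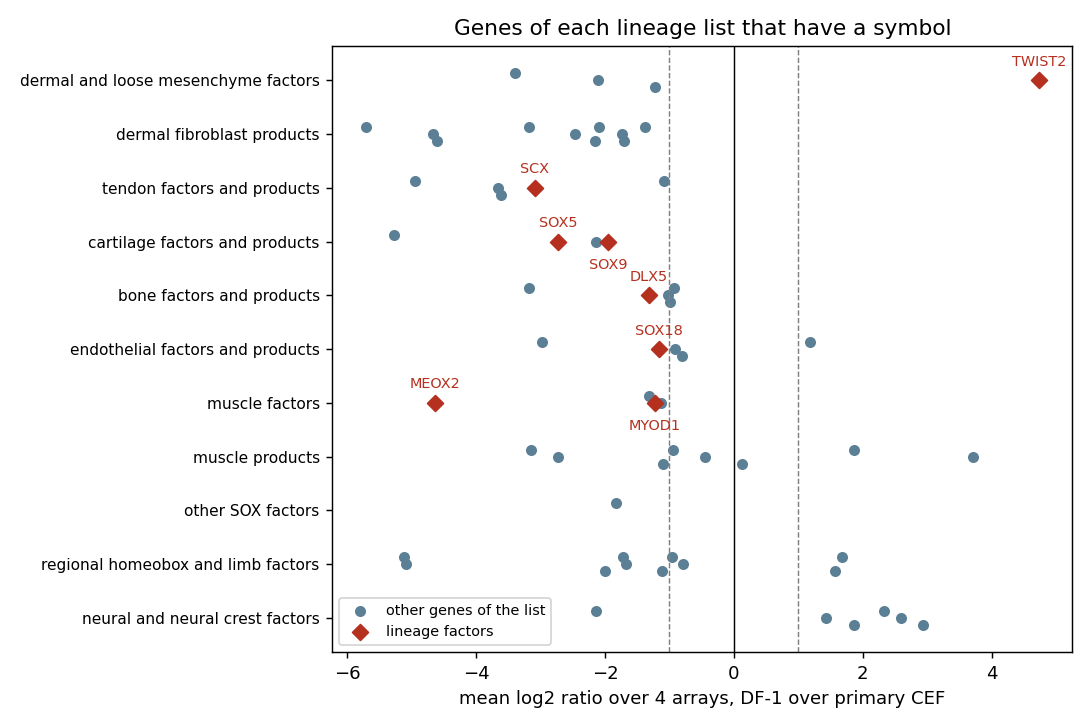
Means over 4 arrays of log2 DF-1 over primary CEF (horizontal axis) are shown for the genes of each lineage list that have a symbol, with the lineage factors as red diamonds and the 2 fold thresholds dashed. TWIST2 lies at 4.73, and the other dermal genes shown lie between -5.71 and -1.22. The study chose those dermal genes on these arrays. SCX, SOX5 and SOX9 lie among lower genes of their lists.

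A list of lower probes, of which only part could be read, names 5 more genes of the lineage lists, and it could name lower genes alone. ID3, which binds E proteins and so restrains bHLH factors such as MYOD1, had -1.41, -1.25, -1.53 and -1.58, a mean of -1.44 ± 0.14 (SD, n = 4). MATN2, a matrilin of extracellular matrix, had -2.54 ± 0.32, and KLF2, a factor of endothelium under flow, had -2.58 ± 0.07. HOXD11, a limb factor, had -3.93 ± 0.81. PECAM1, an adhesion protein of endothelium, had -3.03, -0.90, -2.22 and -0.17, a mean of -1.58 ± 1.29 that was past 2 fold on only 2 of the 4 arrays.

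Genes with values most like those of each factor were found by the root mean square difference of the log2 ratios over the 4 arrays, among genes with a symbol. Over 4 arrays this likeness mainly reflects a similar mean. For TWIST2 the nearest was TMEM116, at a difference of 0.31, and for MEOX2 it was DCN, at 0.13, with -4.85, -4.48, -4.86 and -4.47. For SCX the nearest was MYL4, at 0.11, for SOX5 ANGPT1, at 0.18, for SOX9 SEPN1, at 0.23, and for DLX5 RNF126, at 0.14. SOX18 and MYOD1 were each other's nearest gene, at 0.12.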

How the data were processed

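RNA of DF-1 and primary CEF cells was hybridized together on each of 4 chicken oligo arrays. Background correction and loess normalization within arrays were done by the authors, who deposited for every spot a linear ratio with DF-1 as numerator, plus the mean and SD of these 4 ratios. The authors also deposited the log2 of these ratios, which equaled the log2 of the first table to within 5.0e-05. Spot intensities did not enter, so no filter on dim probes was possible. The log2 ratios were used without centering, control spots were left out, and 1 mean per probe was tested against 0, 2-sided, with limma 3.58.1 in R 4.3.3 over 42034 gene probes. The fit was tested on simulated data with the SD of each probe and no difference in level between arrays. At log2 changes of 1.5, 2, 3 and 4, 50 of 50 probes were called in the right direction each time. Of 41834 probes simulated without a change, 51 were called. The levels of the real arrays were not simulated, so this says nothing on how they affect the calls. Other tables used Python 3.11.15, numpy 2.4.6 and pandas 2.3.3. Symbols came by accession from the study's complete gene tables and from RefSeq, and probe sequences from a supplementary list read in part. Where a gene had several probes, their mean is given, and it was called only if all passed alike.

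The members and the gene lists were chosen with earlier results of these data known. Named genes were all members, the listed genes with a symbol (at most 6 a list, largest change first, with others named beside a count), and the nearest genes by value. The values of a few single genes that enter the counts are not reported here. Alternatives were other array levels, a common spread, adjusted p values, robust variances, limma's treat test, and each array left out. The number of arrays limits the precision.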

Additional observations from a re-analysis of the deposited data

Results flagged for a closer look

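TFAP2B, the regulator with the second highest mean after TWIST2, had a log2 ratio of 4.16 on array 4, far from the other arrays at 2.39 to 2.60. It was the only 1 of the 62 genes examined, the 8 lineage factors and 54 listed genes, with an array so far from the rest. That is 1.6% of the genes, while chance alone gives such an array in about 1 gene in 20. The share is thus no higher than chance would give. No lineage factor had such an array.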

How the results depend on the processing

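TWIST2 was called higher under each alternative run, and the 7 other members were called lower under each except limma's treat test of a change beyond 2 fold, under which 4 were (SCX, MEOX2, SOX5 and SOX9) and DLX5, SOX18 and MYOD1 were not, since that test asks for more than 2 fold. With 1 array left out, 1 member was called higher and 7 lower each time. Of 72 recomputed member means, 64 lay within 1 SD of the value given, 8 moved farther and 0 changed sign. All 8 that moved farther came from settings that shifted the level of the arrays. Leaving out 1 of 4 arrays, or taking the median over arrays, cannot move a mean past 1 SD. The second deposited table holds the same ratios, so these settings lay within 1 SD by construction. The common spread was added for single members after the data had been seen. Over all gene probes, 2571 were called higher and 2548 lower as deposited, 1749 and 3262 with each array at a median of 0, and 1545 and 3577 with the negative controls at 0. The treat test called 879 higher and 1406 lower. Leaving out 1 array gave 2253 to 2997 higher and 2330 to 2881 lower. Of the 54 listed genes, 7 to 10 were called higher and 24 to 42 lower over these alternatives, with 33 to 38 lower when 1 array was left out. Each ratio already sets DF-1 against primary CEF within an array, so the test of the ratios against 0 is paired by array. Beyond that pairing, no paired analysis was possible because the 4 ratios form 1 group, which leaves no second group to block on. Signal over background is unknown, so a ratio of a dim probe cannot be told from that of a bright one.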

Other observations

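Transcription factors of other regions of the embryo were divided in direction. Of 64 listed homeobox and limb factors 10 had a symbol, of which 2 were called higher, 6 were called lower and 2 were not called. HOXD8 had -5.46, -5.11, -4.89 and -4.99 on arrays 1 to 4, and GSC, or goosecoid, had -5.08 ± 0.26 (SD, n = 4), both lower than MEOX2. HOXB3 had 1.68 ± 0.30, while HOXB4 of the same cluster had -1.11 ± 0.22. IRX1 had 1.58 ± 0.48 and IRX2, a related factor, had -2.28, -1.77, -1.93 and -2.02.

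Of 19 listed factors of the nervous system and neural crest 6 had a symbol, of which 5 were called higher and 1 was called lower. A place in this list does not mean that a gene acts in neural tissue alone. SIM1, a bHLH factor placed in it, had 2.11, 2.52, 2.18 and 3.56, and GBX2, a homeodomain factor of the hindbrain boundary, had 2.33 ± 0.23. EMX2 had 1.87 ± 0.45 and PAX2 had 1.43 ± 0.26. The study chose all 16 genes on these arrays, so these counts are not independent evidence of a direction.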
